A study of Mus musculus with 6 samples.

Results

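The immunoglobulin adhesion molecules described here are the CADM paralogs (*Cadm1* to *Cadm4*), *L1cam* and *Chl1* of the L1 family together with *Ncam1*, the junctional adhesion molecules *Jam2* and *Jam3*, and *Alcam*. They were taken by gene symbol and make up 10 of the 24015 genes in the count tables. RNA-Seq was performed on sciatic nerve of mice at postnatal day 14, with 3 libraries per genotype, each from a pool of 3 nerves. Control mice were Rnf40 fl/fl without Cre. Rnf40ΔSC mice carried Dhh::Cre in addition to Rnf40 fl/fl, so that Cre acts in the Schwann cell lineage, and the labels give no treatment for either group. Both genotypes therefore carry the floxed alleles, and mice with Cre alone were not analysed here. The labels give a mixed background of 129SvJ and C57Bl/6J, whereas the methods name C3H in place of 129SvJ. As the RNA came from whole nerve, it also holds transcripts of fibroblasts, perineurial, endothelial and immune cells.

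These proteins are single-pass membrane molecules whose extracellular immunoglobulin domains bind to a partner on the opposing cell. In myelinated nerve, CADM4 sits on the Schwann cell along the internode and binds CADM3, and to a lesser degree CADM2, on the axon, which attaches the membranes to each other. NCAM1 and L1CAM are best known from immature Schwann cells and from Remak Schwann cells, which ensheath small axons without myelin. JAM3, also named JAM-C, lies at the autotypic junctions of the myelinating Schwann cell.

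Library totals ran from 1317167 to 2468765 counts, and all 10 genes passed the filter on low counts, among 11371 genes tested. *Rnf40* itself had 129 ± 7.92 normalized counts in control and 89.0 ± 2.16 in Rnf40ΔSC nerves (SD, n = 3 libraries each), which includes reads from cells that Cre does not reach and from exons outside the deletion (log2 fold change -0.54, adjusted p = 0.00242, quasi-likelihood test of edgeR with Benjamini-Hochberg adjustment), and *Rnf20*, which encodes its partner in the ligase, stood at 0.44 on the same scale (adjusted p = 0.00998). Rnf40ΔSC replicate 3 stood apart from its group by its skeletal muscle transcripts. The 15 muscle genes listed summed to 3454 CPM (counts scaled to a common total, after TMM) in this library, to 101 and 259 in Rnf40ΔSC replicates 1 and 2, and to between 2767 and 4886 in control libraries.

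Promoters are shown for 4 genes of different behaviour, so that the windows of a gene that fell strongly (*Cadm4*), one without any of the motifs searched (*L1cam*), one that rose (*Chl1*) and one with a smaller rise (*Alcam*) can be read against the values that follow. Each window holds 250 bases before and 50 bases after a RefSeq transcription start on GRCm38.p6, printed 5′ to 3′ in the direction of transcription. Capitals mark matches on either strand to the cores bound by EGR factors (GTGGGCG), SOX factors (ACAAAG) and TEAD factors (GGAATG) and to an E-box (CACCTG), none of which overlapped another. The windows lie at chr7:24481773-24482072, plus strand (*Cadm4*), at chrX:73880741-73881040, minus strand (*L1cam*, the first of 2 windows), at chr6:103510626-103510925, plus strand (*Chl1*) and at chr16:52453032-52453331, minus strand (*Alcam*).
Cadm4: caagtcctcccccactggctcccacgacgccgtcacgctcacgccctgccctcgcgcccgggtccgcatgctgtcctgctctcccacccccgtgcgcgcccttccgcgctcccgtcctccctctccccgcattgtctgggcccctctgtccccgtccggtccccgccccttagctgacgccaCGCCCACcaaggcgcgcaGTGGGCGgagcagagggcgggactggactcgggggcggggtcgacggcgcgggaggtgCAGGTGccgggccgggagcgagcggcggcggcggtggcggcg
L1cam: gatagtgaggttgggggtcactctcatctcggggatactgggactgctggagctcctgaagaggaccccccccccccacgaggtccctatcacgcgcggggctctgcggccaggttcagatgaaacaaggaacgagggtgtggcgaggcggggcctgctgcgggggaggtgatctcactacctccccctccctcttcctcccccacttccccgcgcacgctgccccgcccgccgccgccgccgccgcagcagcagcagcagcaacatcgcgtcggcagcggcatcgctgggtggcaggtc
Chl1: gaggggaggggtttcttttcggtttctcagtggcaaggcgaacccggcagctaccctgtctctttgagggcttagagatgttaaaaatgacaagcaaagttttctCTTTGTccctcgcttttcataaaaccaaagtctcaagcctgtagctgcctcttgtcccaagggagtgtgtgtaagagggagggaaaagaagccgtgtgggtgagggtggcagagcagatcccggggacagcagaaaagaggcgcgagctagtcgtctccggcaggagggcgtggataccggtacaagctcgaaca
Alcam: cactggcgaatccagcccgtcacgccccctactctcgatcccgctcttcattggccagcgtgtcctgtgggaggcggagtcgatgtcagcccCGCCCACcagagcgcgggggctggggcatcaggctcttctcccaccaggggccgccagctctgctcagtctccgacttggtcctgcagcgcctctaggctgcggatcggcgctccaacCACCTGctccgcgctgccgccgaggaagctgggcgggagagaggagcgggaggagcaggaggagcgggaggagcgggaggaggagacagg

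Windows were found for 6 of the 10 genes (*Cadm2*, *Cadm3*, *Cadm4*, *L1cam*, *Chl1* and *Alcam*). *Cadm1*, *Ncam1*, *Jam2* and *Jam3* had no entry. The *Cadm4* window held the EGR core once on each strand and 1 E-box, at a GC content of 77.0% against a median of 52.7% over all 32851 windows. The *Alcam* window held the EGR core and an E-box as well, the *Chl1* window the SOX core, and the *Cadm3* window the TEAD core. No match was found in the windows of *Cadm2* and *L1cam*. Of all windows of this length, 7.97% held the EGR core, 18.71% the SOX core, 14.66% the TEAD core and 20.21% the E-box. The EGR core was thus present in windows of *Cadm4*, which fell, and of *Alcam*, which rose.

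Within the group, changes went in both directions. A gene was called when its adjusted p was at most 0.05, its absolute log2 fold change at least 0.8 and its base mean, the average normalized count over all libraries, at least 20. *Cadm1*, *Ncam1*, *Chl1* and *Jam3* were called higher in Rnf40ΔSC nerves, which is 4 of 10 against 3.65% of all genes tested, and *Cadm4* and *L1cam* were called lower, which is 2 of 10 against 4.99%. By adjusted p alone, *Cadm3* and *Alcam* joined the genes that rose (6 of 10 against 15.4% of all genes), while the number that fell stayed at 2 (against 16.2%). All Rnf40ΔSC libraries lay above all control libraries for 5 genes (22.0% of all genes tested) and below them for 3 (21.6%). The median absolute log2 fold change of the 10 genes was 0.99, compared with 0.32 over all genes tested. Since the 10 genes were chosen with results of these data known, these counts and the median are a description. As whole nerve was measured, a lower value could stem from fewer cells of a type or from less RNA per cell, and these cannot be told apart.

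**Figure D1:**
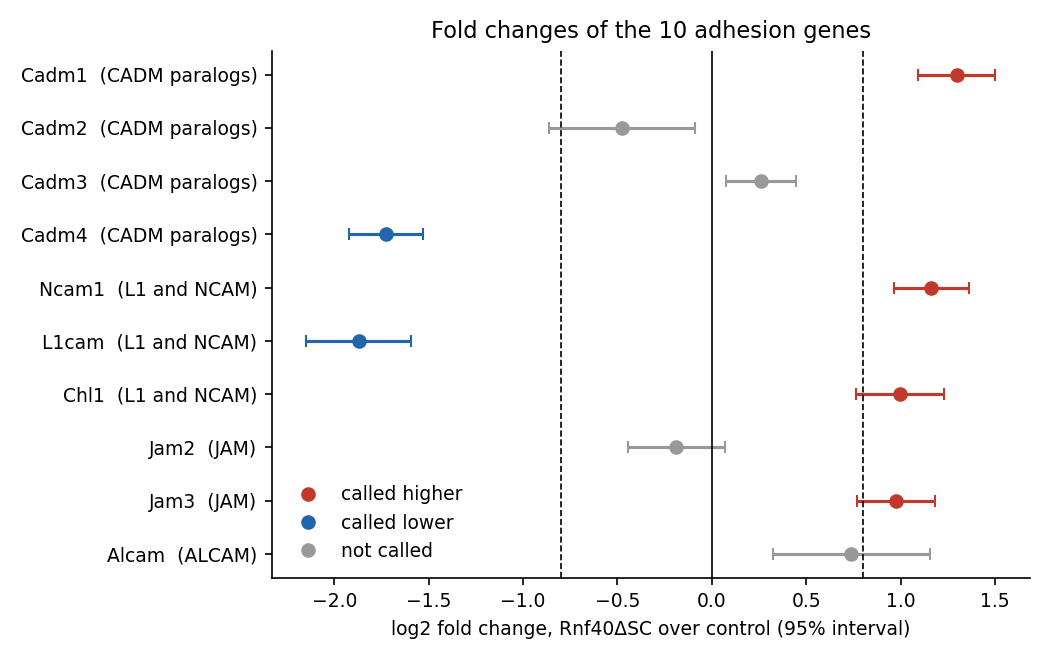
Log2 fold change of Rnf40ΔSC over control (x axis) for each of the 10 adhesion genes, with its 95% interval from edgeR's fit. Dashed lines mark 0.8 on either side of 0, and *Cadm4* (-1.72) and *L1cam* (-1.87) lie opposite *Cadm1* (1.30), *Ncam1* (1.16), *Chl1* (1.00) and *Jam3* (0.98).

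Among the CADM paralogs, the internodal Schwann cell member fell while a second paralog rose. *Cadm4* (chromosome 7, 25267042 to 25289558 on the plus strand, mm9 coordinates of GENCODE vM1) had 816, 960 and 862 normalized counts in control replicates 1, 2 and 3 and 276, 251 and 271 in Rnf40ΔSC replicates. The highest Rnf40ΔSC library lay far below the lowest control library, and replicates within a genotype were close. Its means of 879 ± 73.1 and 266 ± 13.4 (SD, n = 3 libraries each) correspond to a 3.30-fold lower level (log2 fold change -1.72, standard error 0.10, 95% interval -1.92 to -1.53, adjusted p = 5.08e-17, quasi-likelihood test of edgeR with Benjamini-Hochberg adjustment). Among all genes tested, *Cadm4* ranked 34 by p.

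*Cadm1* (chromosome 9, 47338256 to 47665720 on the plus strand) encodes the paralog also named SynCAM1 or Necl-2. It had 174, 171 and 182 normalized counts in control and 425, 440 and 434 in Rnf40ΔSC libraries. All Rnf40ΔSC libraries were higher, and the SD within each genotype (6.05 and 7.80) was small against the gap. The log2 fold change was 1.30 (95% interval 1.09 to 1.50, adjusted p = 4.62e-13 from the same test).

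*Cadm3* (chromosome 1, 175264385 to 175297826 on the minus strand), known as the axonal partner of CADM4, was abundant in both genotypes. Control libraries had 1005, 1123 and 921 normalized counts and Rnf40ΔSC libraries 1247, 1107 and 1293. The genotypes overlapped, since Rnf40ΔSC replicate 2 was below control replicate 2. Its log2 fold change of 0.26 (95% interval 0.08 to 0.44) passed the adjusted p (0.0257, quasi-likelihood test of edgeR) but not the fold limit, and the p missed 0.05 without control replicate 1 (0.0685), control replicate 3 (0.223) or Rnf40ΔSC replicate 1 (0.0828).

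*Cadm2* (chromosome 16, 66655666 to 67621153 on the minus strand), the other axonal paralog, was measured from only 37 to 69 reads per library. Normalized counts were 71.0, 59.3 and 57.7 in control and 42.7, 43.3 and 47.3 in Rnf40ΔSC libraries. Although these did not overlap, the log2 fold change of -0.47 (95% interval -0.86 to -0.09) did not pass the test (adjusted p = 0.0542, quasi-likelihood test of edgeR). *Cadm2* shares 256 exon bases with RP23-300L8.1 on the opposite strand, and since the strand setting of the counting is not given in the sources used here, reads of this stretch could belong to either.

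**Figure D2:**
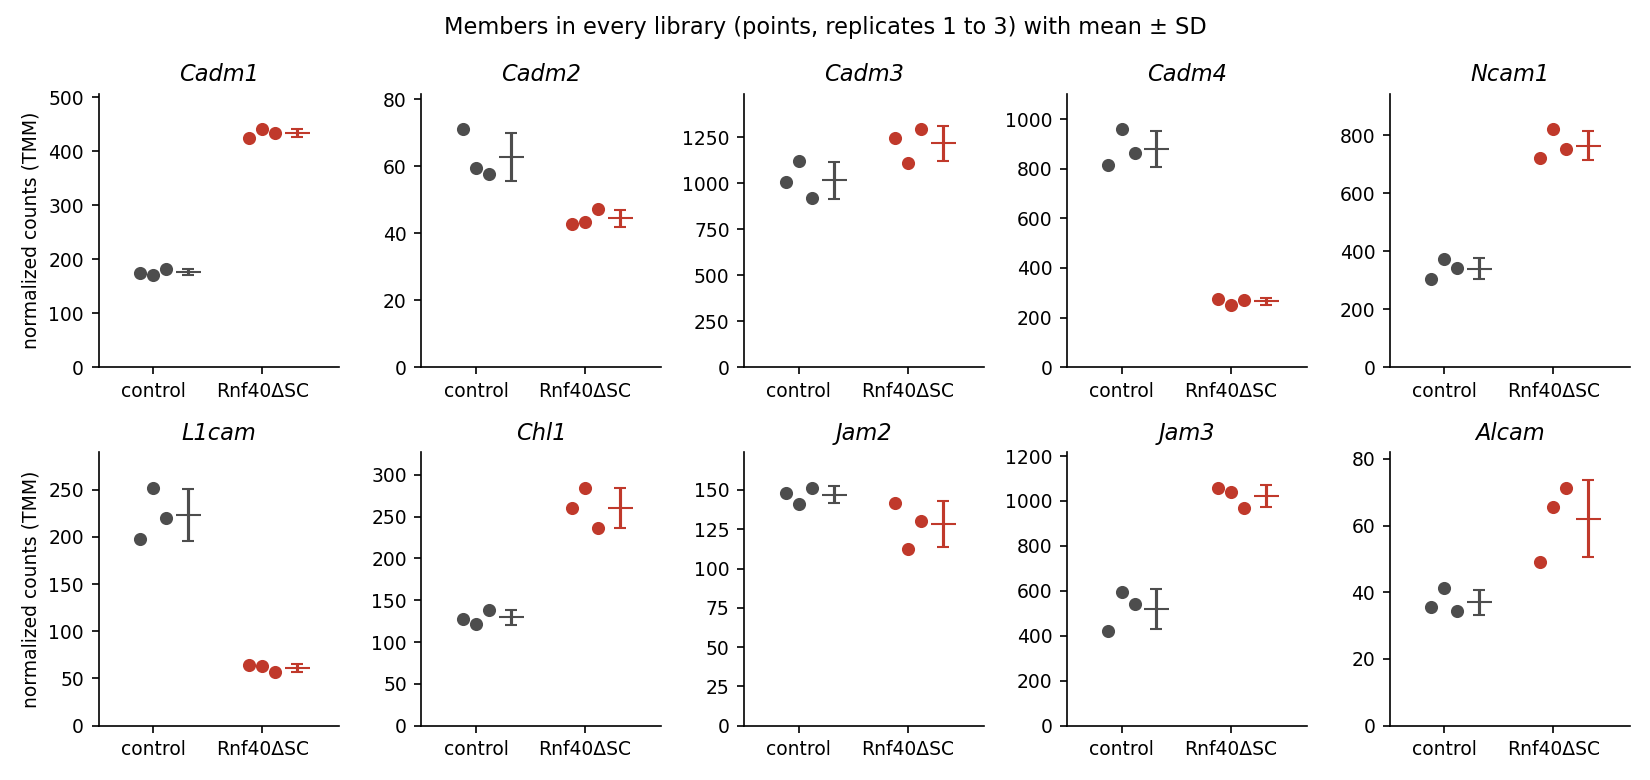
Normalized counts (y axis, linear from 0, own scale per gene) of the 10 adhesion genes in the control and Rnf40ΔSC libraries. Points are replicates 1 to 3 and bars the mean ± SD, and the genotypes overlap for *Cadm3* and *Jam2* among the 10 genes.

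Of the L1 and NCAM genes, *Ncam1* and *Chl1* rose whereas *L1cam* fell. *Ncam1* (chromosome 9, 49310257 to 49607027 on the minus strand), which encodes the neural cell adhesion molecule, had 304, 375 and 341 normalized counts in control and 720, 821 and 753 in Rnf40ΔSC libraries. Every Rnf40ΔSC library exceeded every control library. The rise was 2.24-fold (log2 fold change 1.16, standard error 0.10, 95% interval 0.96 to 1.36, adjusted p = 3.76e-12, quasi-likelihood test of edgeR with Benjamini-Hochberg adjustment). It shares 254 exon bases with *Gm11149* on the opposite strand, which had 0 counts. *Ncam1* is also expressed in skeletal muscle, and without Rnf40ΔSC replicate 3, the only one of its group with muscle transcripts in the range of the controls, the log2 fold change was 1.18. The Rnf40ΔSC libraries then left had 101 and 259 CPM of muscle genes, below all control libraries (2767 to 4886). Muscle content and genotype cannot be told apart in that setting.

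*L1cam* (chromosome X, 71099117 to 71141444 on the minus strand) encodes the founding member of the L1 family, which connects to the spectrin skeleton through ankyrins. It had 198, 252 and 220 normalized counts in control and 64.4, 63.3 and 56.6 in Rnf40ΔSC libraries. No library of one genotype reached the values of the other. *L1cam* was 3.66-fold lower, with an interval that overlapped that of *Cadm4* (log2 fold change -1.87, standard error 0.14, 95% interval -2.15 to -1.59, adjusted p = 7.64e-14 from the same test). It shares 100 exon bases with *Arhgap4* on the same strand, which had 83 counts in all libraries together.

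*Chl1* (chromosome 6, 103460870 to 103699671 on the plus strand), the close homolog of L1, moved opposite to *L1cam*. Normalized counts were 128, 122 and 139 in control and 261, 285 and 237 in Rnf40ΔSC libraries, without overlap. Its log2 fold change was 1.00, with a 95% interval from 0.76 to 1.23 that includes the fold limit.

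Of the junctional adhesion molecules, the more abundant *Jam3* rose and *Jam2* gave no call. *Jam3* (chromosome 9, 26904969 to 26963003 on the minus strand) had 420, 593 and 540 normalized counts in control and 1059, 1041 and 969 in Rnf40ΔSC libraries. The control libraries were spread more widely (SD 88.9) than the Rnf40ΔSC libraries (SD 47.9), and the genotypes did not overlap. The log2 fold change of *Jam3* was 0.98 (adjusted p = 9.02e-10, quasi-likelihood test of edgeR). Its 95% interval from 0.77 to 1.18 includes the fold limit. Leaving out single libraries gave log2 fold changes from 0.85 to 1.08. *Jam2* (chromosome 16, 84774368 to 84826173 on the plus strand), known as an endothelial molecule that binds JAM3, had 148, 141 and 151 normalized counts in control and 142, 112 and 130 in Rnf40ΔSC libraries. Rnf40ΔSC replicate 1 lay within the control range. The log2 fold change of *Jam2* was -0.19 (95% interval -0.45 to 0.07, adjusted p = 0.281, quasi-likelihood test of edgeR), and it turned to 0.0808 when libraries were scaled by total counts.

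*Alcam* (chromosome 16, 52249109 to 52454187 on the minus strand) encodes the activated leukocyte cell adhesion molecule, a ligand of CD6. It was measured from only 23 to 92 reads per library, with 35.5, 41.3 and 34.3 normalized counts in control and 49.1, 65.6 and 71.4 in Rnf40ΔSC libraries. Values did not overlap, but Rnf40ΔSC replicate 1 was closer to the controls than to its own group. The log2 fold change of 0.74 (95% interval 0.32 to 1.16) passed the adjusted p (0.00518, quasi-likelihood test of edgeR) and lay below the fold limit, while DESeq2 without a fold-change prior gave an adjusted p of 0.0505. The fold limit was crossed, so that *Alcam* was called higher, without control replicate 2 (0.83), without Rnf40ΔSC replicate 1 (0.90) and under total-count scaling (1.01).

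To compare members with each other independently of the scaling between libraries, ratios of their raw counts were formed within each library. There were 4.68, 5.63 and 4.72 *Cadm4* reads per *Cadm1* read in control and 0.650, 0.569 and 0.624 in Rnf40ΔSC libraries. This ratio of reads was 8.11-fold lower in Rnf40ΔSC than in control libraries. *Ncam1* reads per *Cadm4* read went from 0.372, 0.391 and 0.396 to 2.61, 3.28 and 2.78. These ratios of reads do not rank the genes by level, as longer transcripts give more reads, and per length *Cadm4* stayed above both *Cadm1* and *Ncam1* in Rnf40ΔSC nerves. *Ncam1* reads per *L1cam* read went from 1.54, 1.49 and 1.55 to 11.2, 13.0 and 13.3, an increase of 8.11-fold. *Jam3* reads per *Jam2* read were 2.83, 4.21 and 3.57 in control and 7.48, 9.26 and 7.43 in Rnf40ΔSC libraries. The genotypes did not overlap for any of these 4 ratios, each of which gave p = 0.1 in an exact two-sided permutation test over libraries (0.1 after Benjamini-Hochberg adjustment), the smallest value that 3 against 3 libraries can reach. All pairs but *Jam3* to *Jam2* join a gene called higher with one called lower. Their separation therefore restates the calls given above.

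**Figure D3:**
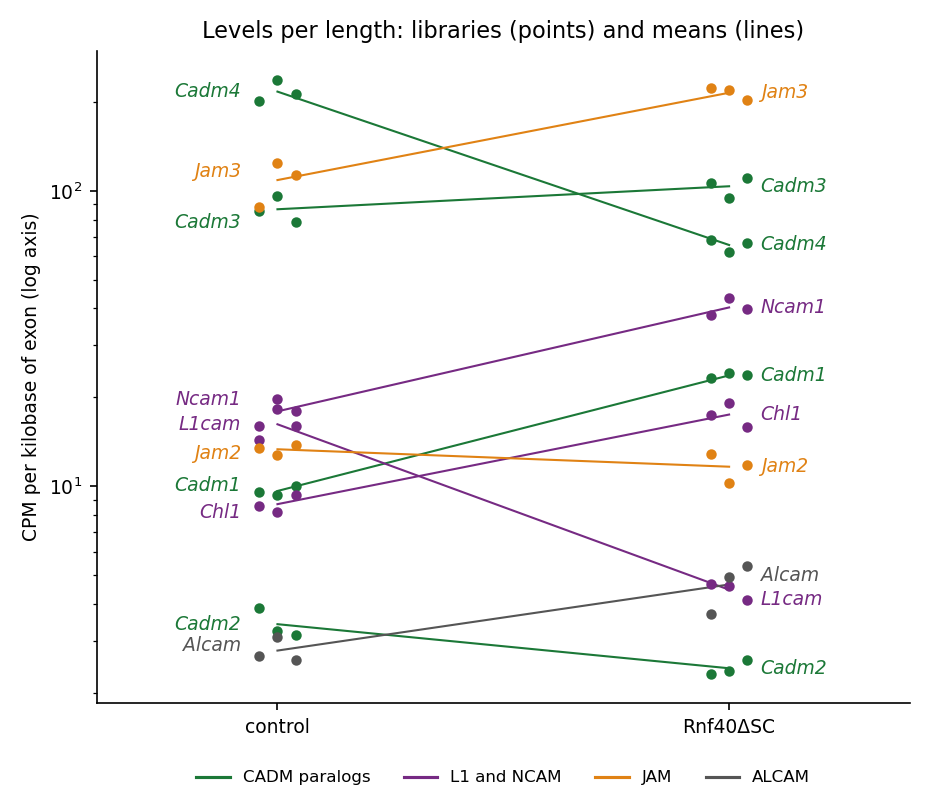
Level per length in CPM per kilobase of exon (log axis) of the 10 adhesion genes in control (left) and Rnf40ΔSC libraries (right), with points for libraries and lines between the genotype means. *Cadm4* passes from 217 to 65.6 and *Jam3* from 109 to 215.

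Levels of different genes were compared as CPM per kilobase of merged exons. This length merges all annotated exons of a gene, from 2161 bases for *Cadm4* to 10121 for *Ncam1*. Which of these exons the transcripts in nerve hold was not measured, and the order, sums and shares of genes depend on these lengths. In control nerves, *Cadm4* was the highest of the 10 genes, at 217 ± 18.1 (SD, n = 3), followed by *Jam3* at 109 ± 18.7 and *Cadm3* at 86.7 ± 8.64, whose libraries overlapped each other. *Ncam1* (17.9 ± 1.87) and *L1cam* (16.2 ± 1.99) also overlapped. *Jam2* (13.3 ± 0.492), *Cadm1* (9.63 ± 0.332), *Chl1* (8.69 ± 0.580), *Cadm2* (3.41 ± 0.394) and *Alcam* (2.77 ± 0.281) followed in this order, each separate from the next in every library.

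In Rnf40ΔSC nerves the order was another one. *Jam3* came first at 215 ± 10.1 CPM per kilobase, *Cadm3* second at 104 ± 8.27 and *Cadm4* next at 65.6 ± 3.30, without overlap between them. *Cadm1* was at 23.7 ± 0.428 and *Chl1* at 17.5 ± 1.61, both above *Jam2* (11.6 ± 1.34). *L1cam* moved from rank 5 to rank 9, at 4.46 ± 0.305, and overlapped *Alcam* (4.65 ± 0.866). *Ncam1* kept rank 4, at 40.3 ± 2.71, and *Cadm2* was last at 2.42 ± 0.137.

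The families differed in their sums and in their make-up. The summed level of the CADM paralogs was 317 ± 24.7 CPM per kilobase in control and 196 ± 11.1 in Rnf40ΔSC nerves, a ratio of 0.617. In contrast, the sum of *Ncam1*, *L1cam* and *Chl1* went from 42.8 ± 3.66 to 62.3 ± 4.09 and that of *Jam2* and *Jam3* from 122 ± 18.4 to 227 ± 10.2. Over all 10 genes, these opposite differences left sums of 485 ± 44.4 and 489 ± 8.98. *Cadm4* held 68.5% ± 1.43 of the CADM level in control but 33.6% ± 0.644 in Rnf40ΔSC nerves (SD, n = 3 libraries each), where *Cadm3* took the largest share (53.0% ± 1.29, compared with 27.4% ± 1.39). The share of *Cadm1* went from 3.06% ± 0.307 to 12.2% ± 0.894. *L1cam* held 37.8% of the L1 and NCAM level in control and 7.17% in Rnf40ΔSC nerves, whereas the share of *Ncam1* went from 41.8% to 64.8%.

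**Figure D4:**
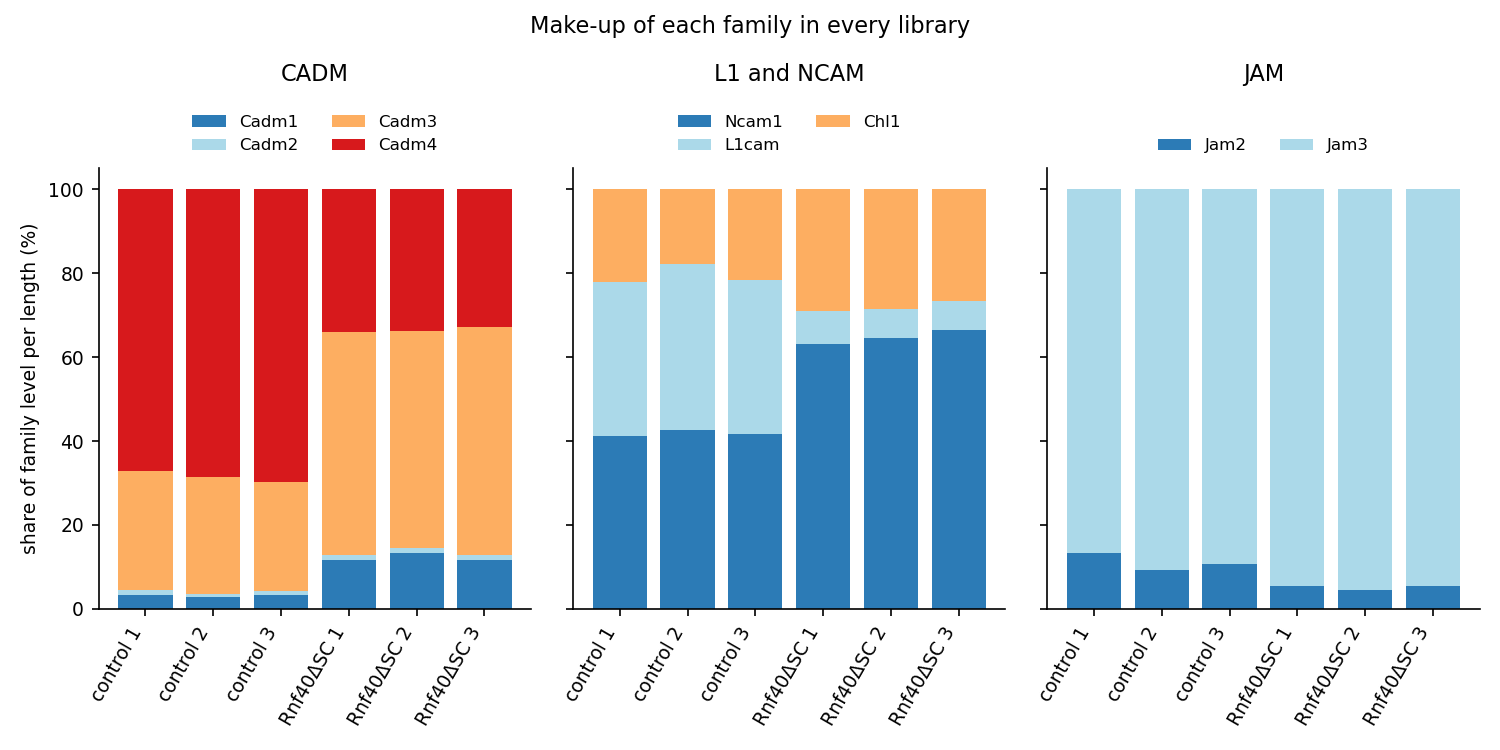
Share of each gene in the summed level per length of its family (y axis, %) in every library (x axis). *Cadm4* makes up 68.5% on average of the CADM bar in control and 33.6% in Rnf40ΔSC libraries, and *L1cam* shrinks from 37.8% to 7.17% of the L1 and NCAM bar.

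The patterns of *Cadm4* and *Cadm1* across the 6 libraries were set against those of 9251 genes by Pearson's r of log2 CPM. Closest to *Cadm4* were *5930403L14Rik* and *Nsdhl*, an enzyme of cholesterol synthesis, both with r = 0.999. For *Cadm1* they were *Ric3*, a chaperone of acetylcholine receptors, and *Sfrp1*, a secreted Wnt antagonist, both with r = 0.999, and *Gria2*, an AMPA receptor subunit, with r = 0.998. Such values describe mainly the difference between both genotypes, which all points share, and r exceeded 0.9 for 1104 genes with *Cadm4* and for 959 with *Cadm1*.

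The list of cytoplasmic partners of the CADM proteins also held *Kcna1* and *Kcna2*, which encode potassium channels of the membrane. Its genes had log2 fold changes between -0.72 and 0.67, the latter for *Kcna1*. Of its 17 genes tested, 0 were called in either direction by edgeR's quasi-likelihood test or by DESeq2. By adjusted p alone, 4 rose and 4 fell (4 and 6 by unadjusted p under 0.05). *Kcna1* was among those that rose and *Kcna2* (-0.32) among those that fell. Of all genes tested, 15.4% rose and 16.2% fell by adjusted p alone. The median log2 fold change of the 17 genes was -0.01 (all genes -0.0026). *Epb41l3*, the protein 4.1B of the paranodal region, fell (log2 fold change -0.72, adjusted p = 9.26e-07), and *Epb41l2*, the protein 4.1G that binds CADM4 in the Schwann cell, had -0.18 (adjusted p = 0.0738). *Mpp6*, a membrane palmitoylated scaffold protein, rose (0.59, adjusted p = 6.55e-05 from the same test). *Pard3*, a polarity protein, stood at 0.12 (adjusted p = 0.513). Scaled by total counts, 3 of these genes were called higher.

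Partners and processing enzymes of the other molecules were called in both directions, with 3 of 24 higher and 2 lower (3.65% and 4.99% over all genes tested). The adaptor of ERM type *Ezr* rose (log2 fold change 1.42), as did *Sema3a* (2.18), a guidance cue whose receptor complex includes L1CAM, from 2 to 12 reads in control and 31 to 57 in Rnf40ΔSC libraries. *Ank3*, ankyrin-G, fell (-1.36, adjusted p = 1.05e-13, quasi-likelihood test of edgeR), and so did *Adam10* (-1.01, adjusted p = 3.11e-12), a protease that sheds several of these molecules. The polysialyltransferases *St8sia2* (0.53, adjusted p = 0.223) and *St8sia4* (-0.37, adjusted p = 0.506), which modify NCAM1, had between 8 and 28 reads per library and did not pass the test.

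Other adhesion genes of the immunoglobulin superfamily were more often lower than higher. Of 51 genes, 38 were tested, of which 2 were called higher and 6 lower, beside 3.65% and 4.99% of all genes tested. By adjusted p alone 6 rose and 17 fell, beside 15.4% and 16.2% of all genes, so that the higher counts were near the share over all genes. The list had a median log2 fold change of -0.47, compared with 0.50 for the 10 genes above. Without control replicate 1 or without Rnf40ΔSC replicate 3, 10 were called lower. *Cntn1*, the contactin of the axonal paranode that is also made by glia, was lowest (log2 fold change -2.68, adjusted p = 5.35e-10, quasi-likelihood test of edgeR). *Igsf11* (1.29), a homophilic adhesion molecule, and *Mpzl1* (1.16), a cell surface receptor, rose.

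**Figure D5:**
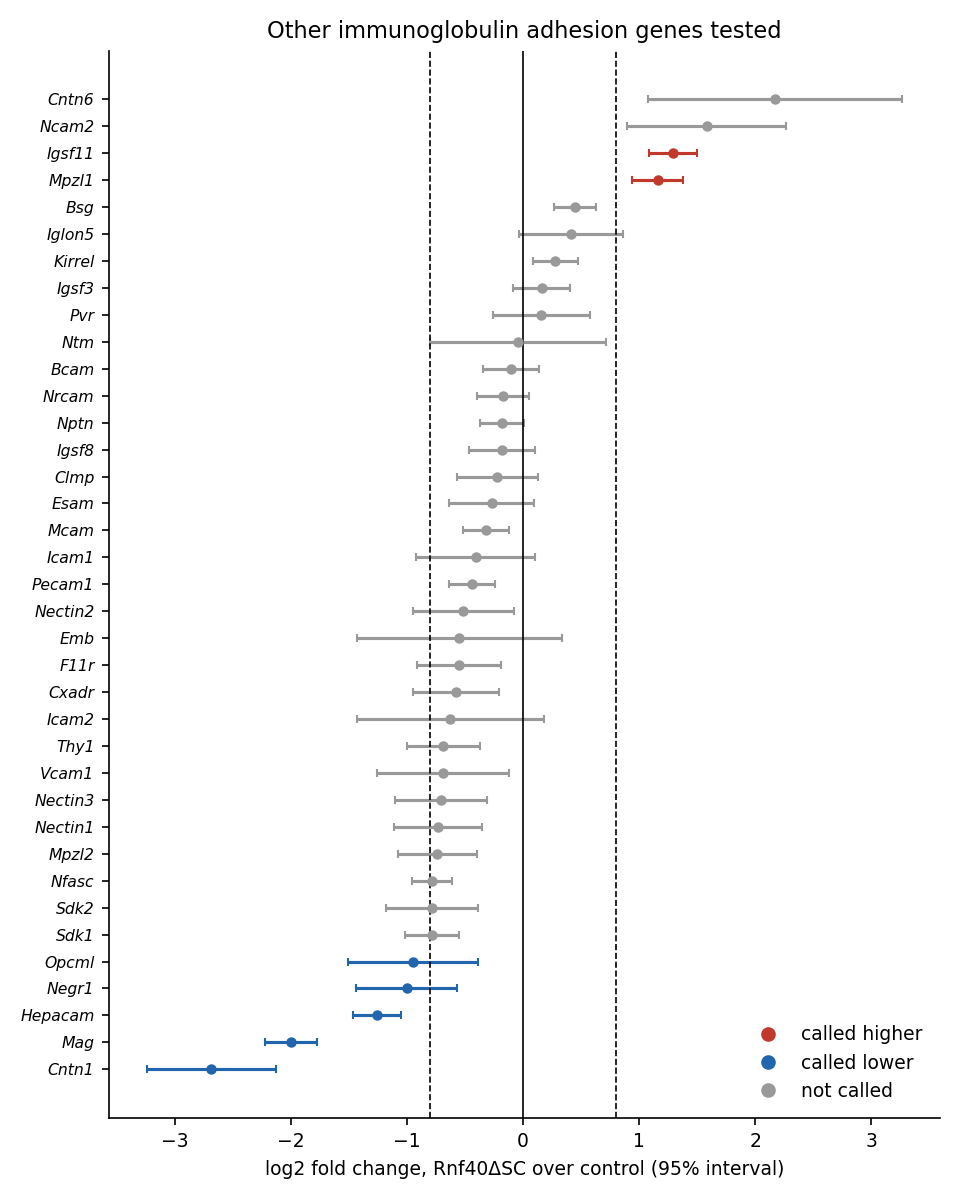
Log2 fold change of Rnf40ΔSC over control (x axis) with its 95% interval for other immunoglobulin adhesion genes tested, in order of their value, with 1 of the 38 genes not shown. Calls are coloured, *Cntn1* (-2.68) lies lowest among the genes shown, and dashed lines mark 0.8 on either side of 0.

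Markers of cell types also differed between the genotypes. Over all genes tested, 3.65% were called higher and 4.99% lower, and 15.4% rose and 16.2% fell by adjusted p alone. Of 14 markers of myelinating Schwann cells, 10 were called lower (among them *Drp2*, -2.18 on the log2 scale), and their sum was 147407 to 168910 CPM in control and 40863 to 43101 in Rnf40ΔSC libraries. By adjusted p alone, 13 fell and 1 rose, *Egr2* (log2 fold change 0.36, adjusted p = 0.00579, quasi-likelihood test of edgeR). Of 11 tested markers of immature and non-myelinating Schwann cells, 3 were called higher, with *Pou3f1* (2.05) and *Sox2* (1.96) in front, and 2 lower, *Scn7a* (-1.86) and *Ngfr* (-0.90). By adjusted p alone, 4 rose and 3 fell. *Gfap* rose (1, 5 and 0 reads in control, 12, 9 and 17 in Rnf40ΔSC libraries) and passed the adjusted p. *Gfra3* fell (25, 19 and 13 reads against 1, 0 and 1) and passed it too, but both genes lay under the base mean of 20. The median log2 fold change of the 11 tested markers was 0.11. The sum over all 12 listed was 818 to 848 CPM in control and 1202 to 1544 in Rnf40ΔSC libraries, but without *Pou3f1*, the most abundant of them, the other 11 summed to 614 to 648 CPM in control and to 480 to 559 in Rnf40ΔSC libraries, lower in every Rnf40ΔSC library. For 6 Schwann lineage markers, 1 was called higher (*Foxd3*, 0.90) and 2 lower (*Cdh19*, -1.20, and *S100b*, -0.89), with 2 higher and 4 lower by adjusted p alone, *Sox10* (-0.79) among the latter, and a median of -0.69. Their sums overlapped between genotypes, whereas without *Itga6*, the most abundant, the other 5 summed to 1182 to 1356 CPM in control and 743 to 799 in Rnf40ΔSC libraries. *Egr2*, *Gfap*, *Gfra3*, *Sox10* and *Itga6* were named after their values were seen. These small counts moved by 1 when a library was left out: 0 lineage markers were called higher without control replicate 1 or Rnf40ΔSC replicate 2. Lineage markers called lower were 1 without Rnf40ΔSC replicate 3, and 3 without control replicate 1 or without Rnf40ΔSC replicate 1. Of the immature or non-myelinating markers, 1 was called lower without control replicate 3. The part of these shifts in the results for the adhesion genes was not tested.

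Endothelial markers, which bear on *Jam2*, summed to 928 to 1079 CPM in control and 676 to 845 in Rnf40ΔSC libraries, and 1 of 12 was called lower (*Cldn5*, -1.12 on the log2 scale), or 2 without control replicate 2 and 5 without Rnf40ΔSC replicate 3. Fibroblast and perineurial markers (2 of 11 called lower, *Itgb4* at -1.69 and *Postn* at -0.80), macrophage markers (1 of 9, *Cd68* at -0.81) and adipocyte markers (2 of 8, *Plin1* at -1.31 and *Cfd* at -0.95) likewise gave calls in the lower direction. *Itgb4* lay far below the median of its list (-0.49), and which cells its transcripts came from was not tested. Of all genes tested, 4.99% were called lower and 16.2% fell by adjusted p alone. By adjusted p alone, 7 of 12 endothelial, 10 of 11 fibroblast and perineurial, 7 of 9 macrophage and 4 of 8 adipocyte markers fell. In these lists, 0 markers rose by adjusted or by unadjusted p under 0.05. The count of fibroblast and perineurial markers called lower stayed at 2 in only 4 of 13 alternatives and was 1 in the others. These others include RLE scaling, DESeq2, and leaving out control replicate 1 or Rnf40ΔSC replicate 2 or 3. The count of macrophage markers was kept in 7 of 13 alternatives and was 0 without control replicate 3 or Rnf40ΔSC replicate 2. That of adipocyte markers was 1 without control replicate 3 or Rnf40ΔSC replicate 2 or 3, and reached 3 with another library left out. Of the 14 muscle genes tested, 0 were called by edgeR or DESeq2 (0 by unadjusted p under 0.05), but 12 were called lower without Rnf40ΔSC replicate 3. All 6 calls among the adhesion genes were also made without that library. Muscle transcripts differ between the genotypes in that setting, so the part of muscle was not tested. Only 5 of 12 neuronal markers passed the filter on low counts, and all 12, of which *Isl1* was at 0 in every library, summed to 56.2 to 79.9 CPM in control and 60.6 to 79.9 in Rnf40ΔSC libraries. Their part in the results for *Cadm2*, *Cadm3*, *Ncam1*, *L1cam* and *Chl1*, which neurons also express, was not tested.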

How the data were processed

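Counts per gene were deposited by the authors as whole numbers, made from uniquely mapped reads by HTSeq after alignment to mm9, without normalization. The labels' processing notes also name Bowtie2 2.1.0 and mm10, and their library kit differs from that of the methods. The annotation is not given in the sources used here. Genotype came from the labels. Labels call the libraries biological replicates, and whether pools shared animals is not given.

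Tests used edgeR 4.0.16 under R 4.3.3 (filterByExpr, TMM, robust quasi-likelihood fit, genotype as the only term, Benjamini-Hochberg adjustment over 11371 genes). Normalized counts were scaled to the geometric mean of the TMM-corrected library sizes. Ratios of counts had 0.5 added to each count for the test. Exon lengths and mm9 coordinates came from GENCODE vM1. On simulated counts with 2-fold changes for this comparison, 181 of 200 changed genes were recovered, with 12 false calls among 11136 genes. These simulated calls used an adjusted p of at most 0.05 alone, without the limits on fold change and base mean.

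The 10 genes and all lists were chosen with earlier results of these data known. Of each list, up to the 2 largest rises and falls among called genes were named, besides *Epb41l2*, *Epb41l3*, *Mpp6*, *Pard3*, *St8sia2*, *St8sia4*, *Ank3*, *Adam10*, *Rnf40* and *Rnf20*, and the 3 genes most like *Cadm4* and *Cadm1*. A gene that this rule names is not reported here. Alternatives were RLE or total-count scaling, DESeq2 1.42.0 with and without a fold-change prior, other filters, the replicate number as a block, and each library left out.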

Additional observations from a re-analysis of the deposited data

How the results depend on the processing

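Of 130 alternative values for the log2 fold changes of the 10 adhesion genes, 125 kept their direction and their side of the adjusted p threshold, 4 missed it (*Cadm3* in 3 and *Alcam* in 1, as given above), and *Jam2* reversed to 0.0808 under total-count scaling. That scaling moved the median of all genes by 0.27 (log2), gave 1008 genes called higher and 261 lower in place of 415 and 567, and called 5 adhesion genes higher (*Alcam* in addition) and 2 lower. Without a minimum base mean 628 genes were called higher, and without a minimum fold change 1543 higher and 1733 lower, which follows from the looser limits. Leaving out each library in turn gave 371 to 469 genes called higher and 548 to 697 lower, and 4 to 5 adhesion genes called higher, again with *Alcam*, and 2 lower. The log2 ratios then ran from -3.07 to -2.93 for *Cadm4* to *Cadm1*, from 2.80 to 2.96 for *Ncam1* to *Cadm4*, from 2.97 to 3.10 for *Ncam1* to *L1cam* and from 1.05 to 1.33 for *Jam3* to *Jam2*.

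The replicate numbers did not pair the libraries: deviations from the group means of libraries with the same number correlated at -0.09, -0.02 and -0.06, and libraries did not correlate best with their own number. With the replicate number as a block, 408 genes were called higher and 566 lower, among them 4 and 2 adhesion genes, and the permutation test within pairs gave 0.25 for each ratio, the smallest value that 3 pairs allow. At 23 to 92 reads per library, differences of *Cadm2* and *Alcam* have wide intervals.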

Other observations

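Some genes with few reads had higher values in Rnf40ΔSC nerves but lay under the base mean of 20, so that they were not called. Among them was *Cntn6*, with 3, 2 and 2 reads in control and 17, 10 and 13 in Rnf40ΔSC libraries (adjusted p = 0.00185, quasi-likelihood test of edgeR). Some other adhesion genes with few reads were not higher, such as *Icam2* (log2 fold change -0.63) and *Ntm* (-0.04). These genes were picked after their values were seen. *Ncam2*, the paralog of *Ncam1*, had 5, 8 and 11 reads in control and 35, 21 and 32 in Rnf40ΔSC libraries (adjusted p = 0.000354, quasi-likelihood test of edgeR). *Dcx*, a microtubule protein known from migrating neurons that binds the L1 relative neurofascin, had 1, 1 and 2 reads in control and 17, 15 and 16 in Rnf40ΔSC libraries. No fold change is given for *Dcx*, since its control libraries hold 2 reads or fewer.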
